A study of Mus musculus with 12 samples.

Results

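The genes described here encode the protein-folding machinery of the endoplasmic reticulum (ER), namely 43 ER chaperones, disulfide isomerases and their partners, chosen by a fixed list of gene symbols. All 43 were found among the 24189 genes of the plasmablast (PB) files and the 24732 genes of the plasma cell (PC) files. They were grouped into 13 genes of the Hsp70 and Hsp90 family and their cochaperones, 2 lectin chaperones, 16 disulfide isomerases, 4 oxidases, 5 prolyl isomerases and 3 other ER factors. Their mRNA was measured by RNA-seq in C57BL/6 mice with 2 libraries in each of 5 groups, which the study describes as independent experiments. CD138+ CD23- PBs were sorted on day 8 of iGB cultures, in which splenic B cells grow on 40LB feeder cells with IL-4 for 4 days and then IL-21 for 4 days. Their genotypes were Xbp1 fl/fl (control PBs), Xbp1 fl/fl with Cd23-Cre (Xbp1-deficient PBs) and Bhlha15 CreER/CreER. Cd23-Cre deletes floxed alleles in the B cell lineage, and the control PBs served for both mutants. In Bhlha15 CreER/CreER mice, a tamoxifen-inducible Cre is inserted into Bhlha15, the gene encoding Mist1, so that these PBs differed from the control PBs in the alleles at both loci. TACI+CD138+ PCs were sorted from the spleen on day 7 after immunization with NP-KLH from Cd23-Cre Bhlha15 fl/fl mice (Mist1-deficient PCs) and from control mice (control PCs), which the labels call wildtype and the study describes as Bhlha15 fl/fl, an allele that carries a biotin acceptor sequence. Mist1 binding was mapped by Bio-ChIP-seq in 2 experiments on CD138+ PBs that were homozygous for Bhlha15 fl and Rosa26 BirA and had been stimulated with LPS for 4 days.

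Nascent polypeptides entering the ER are bound by the Hsp70 chaperone BiP (Hspa5), whose ATPase cycle is driven by J-domain cochaperones and nucleotide exchange factors, and later by the Hsp90 chaperone Grp94 (Hsp90b1). Glycoproteins are held by the lectins calnexin and calreticulin, while protein disulfide isomerases introduce and rearrange disulfide bonds with oxidizing equivalents from the Ero1 enzymes, and prolyl isomerases turn proline bonds. Antibody-secreting cells depend on this machinery for the assembly of immunoglobulin, and Xbp1, which is activated by Ire1 (Ern1), is one of the transcription factors of the unfolded protein response (UPR) that act on such genes.

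Expression is given in TPM, counts divided by gene length that the authors scaled to a sum of 1000000 in each library without immunoglobulin and T cell receptor genes, so that the sequencing depth is unknown. Bhlha15 was at 0.210 and 0.551 TPM in the Bhlha15 CreER/CreER PBs against 176 and 159 TPM in the control PBs, and at 14.4 and 16.6 TPM in the Mist1-deficient PCs against 258 and 242 TPM in the control PCs. Xbp1, whose value covers the whole gene and so also counts transcripts with the deletion, was at 1981 and 2024 TPM in the Xbp1-deficient PBs against 3168 and 3043 TPM. In the Xbp1-deficient PBs, Bhlha15 was at 3.57 and 2.60 TPM, so that its transcript was low in both PB mutants. All 7 plasma cell markers examined were above 1 TPM in all 10 libraries. Markers of other cells differed between groups, with neutrophil markers summing to 134 and 133 TPM in the Xbp1-deficient PBs, 3.89 to 11.6 TPM in the other PBs and 461 to 988 TPM in the PCs, and fibroblast markers summing to 854 to 1645 TPM in the PBs and 2.27 to 2.89 TPM in the PCs. Fewer cells of a type and less RNA per cell cannot be told apart in such bulk libraries. Differences are given as log2 fold changes of TPM scaled by the median of ratios, with ± for the standard error (SE) and the Benjamini-Hochberg adjusted p of limma over all genes tested, and a gene was called at an adjusted p under 0.05.

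In control PBs, the 43 genes together took 8.11% and 7.80% of all TPM. Their mean levels ranged from 2.21 TPM for Pdia5 to 15467 TPM for Hsp90b1, with a median of 506 TPM and 14 genes above 1000 TPM. The 4 most abundant were Hsp90b1, Mzb1, which encodes a plasma cell cochaperone of Grp94, Calr and Hspa5. Of the isomerases, Txndc5 (4584 and 4334 TPM in the 2 libraries) and Pdia4 (3938 and 3816 TPM) were the most abundant, ahead of Pdia6 (3086 and 2956 TPM) and Pdia3 (2843 and 2679 TPM). Pdia5, Fkbp14, Fkbp7, Tmx4, Tmx2, Cnpy3 and Creld1 were the 7 least abundant genes.

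To see which parts of the folding machinery depend on Xbp1, Xbp1-deficient PBs were compared with control PBs. Of the 43 genes, 31 were lower, 2 were higher and 10 were not called, against a background of 18.0% lower and 10.3% higher of the 12125 genes tested. The median log2 fold change was -1.33 for the 43 genes and 0.0041 for all genes tested, and 17 genes were lower by more than 3-fold with a mean above 5 TPM in the controls, as were 1.63% of the genes tested. The genes for BiP and Grp94, Hspa5 and Hsp90b1, were not among the lower genes. Together they made up 28.3% and 28.7% of the TPM of the 43 genes in control PBs and 56.3% and 57.3% in Xbp1-deficient PBs, while the other 41 genes fell from 5.82% and 5.56% to 2.31% and 2.27% of all TPM.

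Hspa5 was at 7262 and 7136 TPM in control PBs and at 8616 and 9223 TPM in Xbp1-deficient PBs, a log2 fold change of 0.10 ± 0.18 (adjusted p = 0.721). Hsp90b1 was at 15657 and 15277 TPM and 21101 and 21269 TPM, respectively, a log2 fold change of 0.25 ± 0.23 (adjusted p = 0.470). Both mutant libraries were thus above both control libraries for these 2 genes, but neither difference was called. The scaling decided this outcome, as both genes were called higher on TPM as deposited, with log2 fold changes of 0.31 for Hspa5 (adjusted p = 0.00208) and 0.45 for Hsp90b1 (adjusted p = 0.000235), and after quantile normalization, with 0.92 and 0.50. On TPM as deposited, the median of all genes tested was shifted by 0.21.

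The cochaperones of BiP were lower without Xbp1. Of the 13 genes of the Hsp70 and Hsp90 class, 11 were lower, 9 of them by more than 3-fold, at a median log2 fold change of -2.04. Dnajb9, which encodes the J-domain cochaperone ERdj4, was at 308 and 304 TPM in the controls and 26.7 and 32.7 TPM in the mutant, a log2 fold change of -3.58 ± 0.10 (adjusted p = 2.11e-07), corresponding to an 11.9-fold decrease. Dnajc3 (p58IPK) was at 520.4 and 492 TPM and 57.2 and 53.4 TPM with 10.6-fold lower expression, and Dnajb11 (ERdj3), which binds unfolded immunoglobulin heavy chains, was at 967 and 927 TPM and 138 and 136 TPM, 7.96-fold lower. Dnajc10 (ERdj5), which joins a J domain to thioredoxin domains and reduces disulfides, had a smaller log2 fold change of -1.73 ± 0.092 (adjusted p = 5.23e-06). The genes for nucleotide exchange on BiP fell as well. Hyou1 (Grp170) was at 1206 and 1169.9 TPM in the controls and 136 and 132 TPM in the mutant, with a log2 fold change of -3.36 ± 0.086 (adjusted p = 1.60e-07) and 10.3-fold lower expression. Sil1, the other exchange factor, was at 224 and 227 TPM and 86.7 and 76.2 TPM, at a log2 fold change of -1.68. The ratio of Hspa5 to Hyou1 TPM was 6.02 and 6.10 in the control libraries and 63.5 and 70.0 in the mutant libraries, and the ratio of Hspa5 to Dnajb9 TPM was 23.6 and 23.5 against 323 and 282.

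Hspa13, which encodes the Hsp70-related ATPase Stch, was at 271 and 250.2 TPM in the controls and 31.7 and 30.5 TPM in the mutant (9.65-fold lower, adjusted p = 1.60e-07). Sdf2l1, a partner of ERdj3, was at 1930.0 and 1875 TPM and 558 and 511 TPM, and its log2 fold change was -2.04. Manf, which encodes a small secreted protein that binds BiP, had a smaller decrease from 1756 and 1685 TPM to 905 and 930.3 TPM, at a log2 fold change of -1.11 ± 0.13 (adjusted p = 3.47e-04). On the side of Grp94, Mzb1 was at 15573 and 14995 TPM in the controls and 3707 and 3547 TPM in the mutant, a log2 fold change of -2.28 ± 0.19 (adjusted p = 6.66e-05). The ratio of Hsp90b1 to Mzb1 TPM went from 1.01 and 1.02 to 5.69 and 6.00. Cnpy3, which encodes the Grp94 cochaperone for Toll-like receptors, was at 23.2 and 25.5 TPM and 22.0 and 21.6 TPM, and its log2 fold change of -0.37 (adjusted p = 0.0112) was lost without either control library or without Xbp1-deficient PB replicate 2 (adjusted p up to 0.0861).

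**Figure D1:**
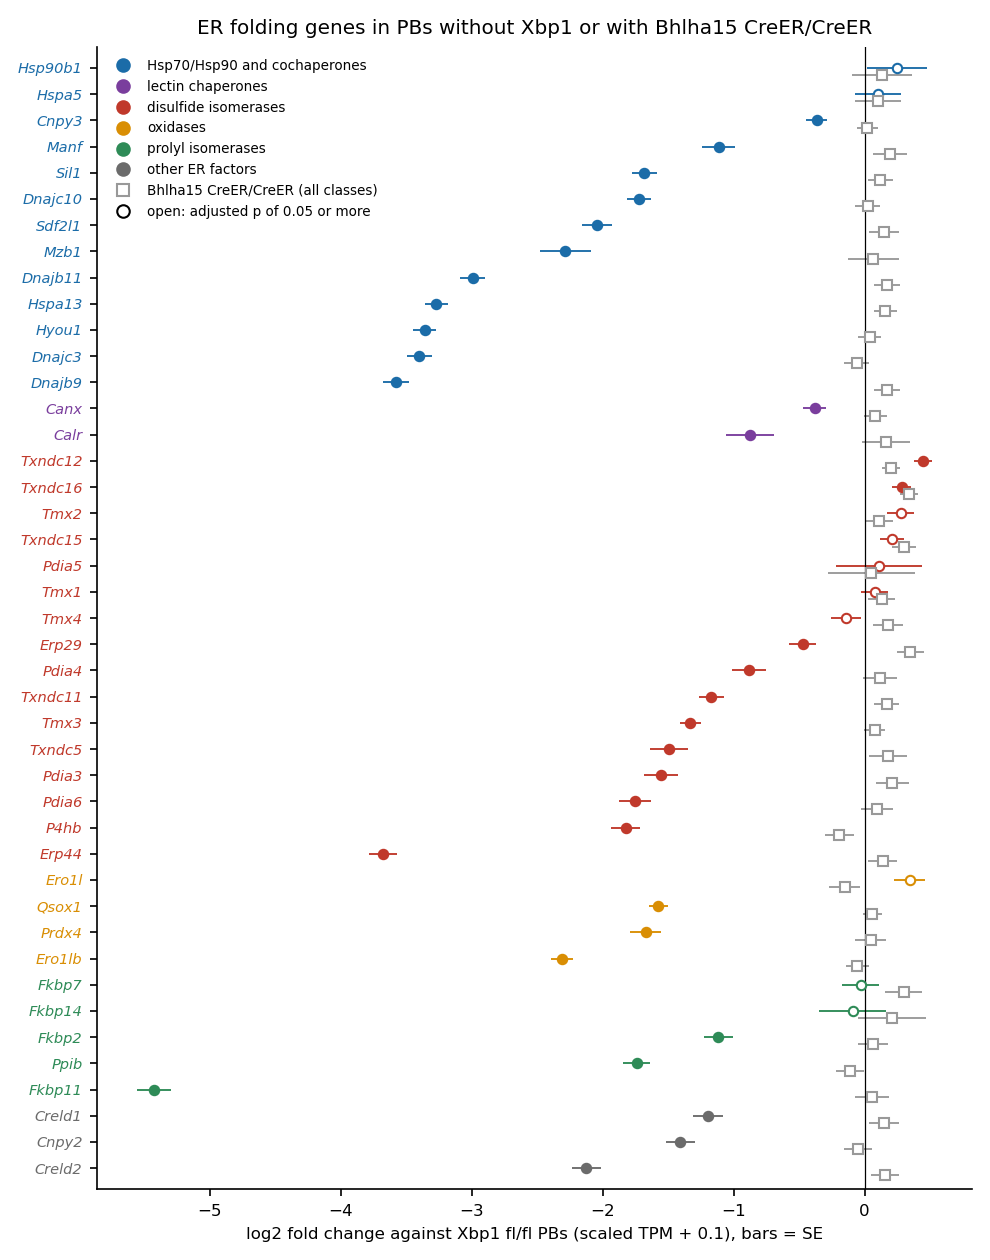
Log2 fold changes of the 43 genes in PBs against Xbp1 fl/fl PBs, grouped by class, for Cd23-Cre Xbp1 fl/fl PBs and Bhlha15 CreER/CreER PBs; points are limma estimates and bars their standard errors from 2 libraries in each group. Fkbp11, Erp44, Dnajb9 and Dnajc3 lie farthest to the left without Xbp1, Hspa5 and Hsp90b1 lie close to 0, and the Bhlha15 CreER/CreER values stay between -0.19 and 0.35.

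The lectin chaperones changed less. Calr was at 9903 and 9005 TPM in the controls and 5935 and 5962 TPM in the mutant, a log2 fold change of -0.88 ± 0.18 (adjusted p = 0.00820). Canx was at 743 and 726 TPM and 666 and 638 TPM, a log2 fold change of -0.38 ± 0.089 (adjusted p = 0.0136). The call was lost for Calr whichever of the 4 libraries was left out (adjusted p up to 0.117) and likewise for Canx (adjusted p up to 0.140), although the mutant libraries lay below the control libraries for both genes.

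The 16 disulfide isomerases were divided, with 9 lower, 2 higher and 5 not called, and a median log2 fold change of -0.68. Erp44 fell the most. It encodes a pH-dependent chaperone that returns unassembled IgM subunits and Ero1 from the early secretory pathway, and was at 638 and 614 TPM in the controls and 58.2 and 54.8 TPM in the mutant, a log2 fold change of -3.68 ± 0.11 (adjusted p = 2.89e-07) or 12.8-fold lower expression. The abundant catalytic isomerases fell by lesser amounts. P4hb, which encodes PDI itself, was at 1862 and 1865 TPM and 649 and 569 TPM, giving a log2 fold change of -1.82. Pdia6 (P5) was at 3086 and 2956 TPM and 1076 and 998 TPM with -1.75. Pdia3 (ERp57), the partner of the lectin chaperones, was at 2843 and 2679 TPM and 1119 and 1052 TPM with -1.55. Txndc5 (ERp46) had a log2 fold change of -1.49, Tmx3, a membrane-bound isomerase, of -1.33, Txndc11 of -1.17 and Pdia4 (ERp72) of -0.88, with adjusted p-values between 1.01e-05 and 0.00145. Erp29, which lacks a redox-active cysteine pair, was at 649 and 621 TPM and 538 and 518 TPM, at a log2 fold change of -0.47 that did not pass without control PB replicate 1 or Xbp1-deficient PB replicate 2 (adjusted p up to 0.102).

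In the opposite direction, Txndc12 (ERp18) was at 124 and 126 TPM in the controls and 197 and 196 TPM in the mutant, a log2 fold change of 0.45 ± 0.070 (adjusted p = 0.00201). Txndc16 (ERp90) was at 96.5 and 95.9 TPM and 133 and 137 TPM, a log2 fold change of 0.28 ± 0.071 (adjusted p = 0.0186) that was lost whichever of the 4 libraries was left out (adjusted p up to 0.143). No call was made for 5 isomerases. Tmx1 was at 171 and 158 TPM and 202 and 199 TPM (log2 fold change 0.08), and Txndc15 at 68.5 and 72.2 TPM and 90.5 and 97.5 TPM (0.21, adjusted p = 0.122). Tmx2 was at 25.3 and 22.3 TPM and 32.8 and 33.5 TPM, Tmx4 at 14.9 and 14.4 TPM and 14.3 and 16.5 TPM and Pdia5 between 1.64 and 2.99 TPM in the 4 libraries. The control and mutant libraries overlapped for Tmx4 and Pdia5, whereas both mutant libraries were higher for Tmx1, Tmx2 and Txndc15, which were called higher on TPM as deposited and after quantile normalization.

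The oxidases separated into 2 patterns. Ero1lb, which encodes the Ero1 enzyme of highly secretory cells, was at 228 and 225 TPM in the controls and 56.4 and 49.2 TPM in the mutant, a log2 fold change of -2.31 ± 0.087 (adjusted p = 1.01e-06) or 4.96-fold lower expression. Ero1l, its broadly expressed paralog, was at 158 and 172 TPM and 276 and 212 TPM, a log2 fold change of 0.34 ± 0.12 (adjusted p = 0.0610). It was called higher on TPM as deposited, after quantile normalization, with at least 5 TPM and without Xbp1-deficient PB replicate 2. Both mutant libraries were therefore below the controls for Ero1lb and above them for Ero1l, and the ratio of Ero1lb to Ero1l TPM went from 1.44 and 1.30 to 0.204 and 0.232. Prdx4, a peroxiredoxin that uses peroxide to oxidize isomerases, was at 1158 and 1201 TPM and 431 and 424 TPM, a log2 fold change of -1.67 ± 0.12 (adjusted p = 2.39e-05). Qsox1, a sulfhydryl oxidase of the Golgi and the secretory pathway, was at 61.6 and 66.5 TPM and 24.9 and 24.6 TPM, a log2 fold change of -1.57 ± 0.074 (adjusted p = 3.03e-06).

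Among the prolyl isomerases was the gene with the largest change of the 43. Fkbp11, a membrane-anchored FK506-binding protein enriched in secretory cells, was at 424 and 467 TPM in the controls and 13.6 and 10.4 TPM in the mutant, a log2 fold change of -5.43 ± 0.13 (adjusted p = 1.48e-07). Ppib (cyclophilin B) was at 936 and 892 TPM and 336 and 297 TPM, giving a log2 fold change of -1.74, and Fkbp2 was at 641 and 608 TPM and 322 and 343 TPM with -1.12. The other 2 genes of this class were expressed at low levels and were not called, with Fkbp7 at 10.6 and 11.2 TPM and 10.8 and 14.2 TPM and Fkbp14 at 2.80 and 3.27 TPM and 4.19 and 2.56 TPM. Of the remaining ER factors, Creld2, an ER stress-inducible protein, was at 1669 and 1596 TPM and 438 and 428 TPM, a log2 fold change of -2.12 ± 0.11 (adjusted p = 4.36e-06). Cnpy2 fell from 477 and 439.7 TPM to 195 and 205 TPM (-1.41) and Creld1 from 28.1 and 25.1 TPM to 13.2 and 13.5 TPM (-1.20).

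**Figure D2:**
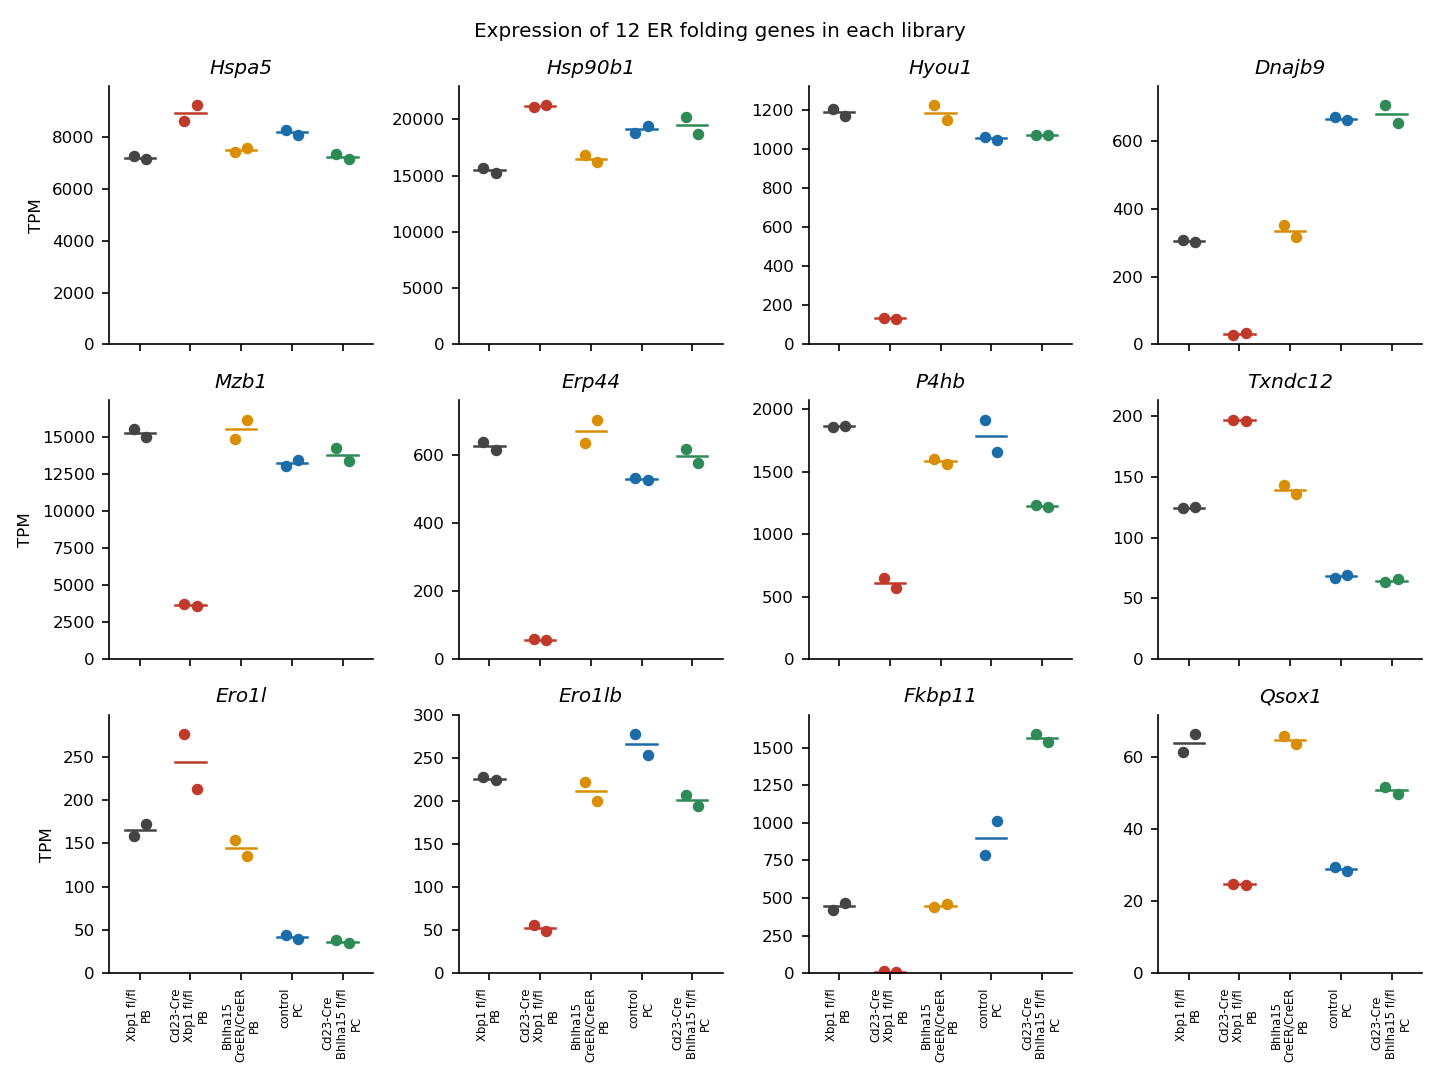
TPM of 12 of the genes in each of the 10 libraries, with 1 point for each library, the group mean as a horizontal bar and linear axes that start at 0. Hspa5 and Hsp90b1 are higher in both Cd23-Cre Xbp1 fl/fl PB libraries than in the Xbp1 fl/fl PB libraries, while Hyou1, Dnajb9, Erp44, Ero1lb and Fkbp11 are close to the axis in the same libraries.

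Chaperones outside the ER did not follow this pattern. Of 35 such genes of the cytosol, nucleus and mitochondria, 1 was lower (Ptges3, log2 fold change -0.30) and 13 were higher in Xbp1-deficient PBs. Their median log2 fold change was 0.21, and the most abundant, Hsp90ab1, had a log2 fold change of 0.74 ± 0.11 (adjusted p = 0.00145). Of 12 genes for sensors and factors of the UPR, 6 were lower and 2 were higher. The 12 include Xbp1, the deleted gene, and Bhlha15, which was low in these PBs, and of the other 10 genes 4 were lower and 2 were higher. Eif2ak3, which encodes the sensor Perk, had a log2 fold change of -1.57 ± 0.078 (adjusted p = 3.91e-06), Atf6b of -2.44 and Atf6 of -0.37. Ern1, which encodes Ire1, and Ddit3, which encodes the stress factor Chop, were higher, with log2 fold changes of 1.66 ± 0.11 (adjusted p = 1.87e-05) and 1.59 ± 0.12 (adjusted p = 3.23e-05).

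When any single library was left out, the median log2 fold change of the 43 genes in Xbp1-deficient PBs was between -1.38 and -1.29. All 6 neutrophil markers that could be tested were higher in these PBs, at a median log2 fold change of 3.71, and 1 of 6 fibroblast markers was lower. Plasma cell markers, which include Xbp1, summed to 26250.1 and 26833 TPM in control PBs and 17947 and 17485 TPM in Xbp1-deficient PBs, most of it from Igj, and 4 of 7 were lower; their part in the values of the 43 genes was not tested.

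The promoters of the changed and unchanged genes are shown to compare their UPR elements. RefSeq promoter windows on the GRCm38.p6 build were at hand for 36 of the 43 genes (300 bases, of which 250 lie before the start site), and they were searched on both strands for the ER stress element ERSE (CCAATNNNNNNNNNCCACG), for ERSE-II (ATTGG and CCACG, 1 base apart) and for ACGTGG, the core of Xbp1-binding sites. The CCACG of both ERSE motifs overlaps ACGTGG where a T follows. An ERSE was present in 8 of the 36 genes (22.2%), namely Hspa5, Hsp90b1, Dnajc3, Canx, Calr, Pdia6, Ero1lb and Creld2, and in 0.137% of the 27025 genes of the table. This element was defined on genes of this kind. ERSE-II was found in Dnajb11 and in 0.0444% of all genes. ACGTGG was present in 12 of the 36 genes (33.3%), in 9.40% of all genes in the table and in 13.4% of those tested in PBs. Among the 13 genes with a window that were lower by more than 3-fold without Xbp1, 4 held an ERSE and 7 held ACGTGG, and among the 12 with a window that were not lower, 2 held an ERSE and 3 held ACGTGG.

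The 250 bases before the start site are shown for Hspa5 (chr2:34771840-34772089 on the plus strand) and Hsp90b1 (chr10:86705445-86705694 on the minus strand), which have an ERSE and were not lower without Xbp1, for Dnajc3 (chr14:118937682-118937931 on the plus strand), Pdia6 (chr12:17266339-17266588 on the plus strand) and Creld2 (chr15:88819396-88819645 on the plus strand), which have an ERSE and fell, and for Dnajb9 (chr12:44210069-44210318 on the minus strand), which fell and has ACGTGG alone of these motifs. Capitals mark the fixed letters of the ERSE and ACGTGG matches on either strand, and each sequence reads toward its gene.
Hspa5: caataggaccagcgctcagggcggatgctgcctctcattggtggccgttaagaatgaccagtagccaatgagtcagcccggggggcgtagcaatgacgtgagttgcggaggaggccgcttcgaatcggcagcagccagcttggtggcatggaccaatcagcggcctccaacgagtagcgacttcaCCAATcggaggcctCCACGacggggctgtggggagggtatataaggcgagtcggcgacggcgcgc
Hsp90b1: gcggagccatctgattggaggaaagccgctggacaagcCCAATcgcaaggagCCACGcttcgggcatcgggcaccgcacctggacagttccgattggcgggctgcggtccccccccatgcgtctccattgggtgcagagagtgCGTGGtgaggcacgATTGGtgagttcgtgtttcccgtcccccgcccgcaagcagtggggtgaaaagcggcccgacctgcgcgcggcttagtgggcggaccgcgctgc
Dnajc3: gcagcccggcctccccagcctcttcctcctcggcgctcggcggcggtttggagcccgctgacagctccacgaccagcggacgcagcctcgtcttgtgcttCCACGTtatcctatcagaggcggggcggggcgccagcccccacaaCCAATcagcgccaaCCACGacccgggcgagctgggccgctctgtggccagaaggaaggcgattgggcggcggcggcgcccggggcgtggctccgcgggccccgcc
Pdia6: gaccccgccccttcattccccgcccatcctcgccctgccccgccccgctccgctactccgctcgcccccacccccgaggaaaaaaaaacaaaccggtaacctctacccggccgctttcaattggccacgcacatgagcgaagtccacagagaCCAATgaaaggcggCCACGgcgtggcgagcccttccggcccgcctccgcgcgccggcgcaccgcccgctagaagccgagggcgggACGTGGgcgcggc
Creld2: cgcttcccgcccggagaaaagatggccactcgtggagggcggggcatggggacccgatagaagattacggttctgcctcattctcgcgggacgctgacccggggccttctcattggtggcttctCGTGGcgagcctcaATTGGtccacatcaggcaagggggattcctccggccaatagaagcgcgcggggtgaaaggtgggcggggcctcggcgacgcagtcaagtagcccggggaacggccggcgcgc
Dnajb9: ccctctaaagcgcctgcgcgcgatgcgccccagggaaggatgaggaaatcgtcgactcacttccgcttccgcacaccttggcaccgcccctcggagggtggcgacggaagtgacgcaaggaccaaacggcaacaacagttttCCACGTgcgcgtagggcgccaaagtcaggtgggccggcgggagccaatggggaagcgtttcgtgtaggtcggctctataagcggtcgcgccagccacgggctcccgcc
Hsp90b1 holds 2 ERSE matches, 1 on each strand, and is the most abundant of the 43 genes in each of the 5 groups. Dnajc3 and Pdia6 hold an ERSE and a separate ACGTGG, and their expression was 10.6-fold and 3.37-fold lower without Xbp1, respectively. An ERSE was thus present both in genes that fell and in the 2 chaperones that did not.

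To ask whether Mist1 contributes in PBs, Bhlha15 CreER/CreER PBs were compared with the same control libraries. None of the 43 genes was called by limma, against 0.272% lower and 0.0495% higher of the genes tested, and 4 had an unadjusted p under 0.05, namely Txndc12, Txndc15, Txndc16 and Erp29, a share of 9.30% against 10.4% of all genes tested. None differed by more than 3-fold, as did 0.033% (lower) and 0.0165% (higher) of the genes tested. The log2 fold changes ranged from -0.19 for P4hb to 0.35 for Erp29, with a median of 0.12 and of 0.0044 for all genes, and 37 of the 43 (86.0%) were above 0, as were 51.2% of all genes tested and 32 of the 35 chaperones outside the ER. Hyou1 was at 1223 and 1147 TPM, Dnajc10 at 230.4 and 212 TPM and Cnpy3 at 25.1 and 22.9 TPM in these PBs, which were the smallest differences from the controls. Hspa5 was at 7425 and 7567 TPM (log2 fold change 0.10, SE 0.18), Hsp90b1 at 16809.5 and 16185 TPM, Mzb1 at 14897 and 16199 TPM and Calr at 10298 and 10214 TPM. Erp29, at 771 and 799.8 TPM and above both control libraries, was called on TPM as deposited and after quantile normalization, and Pdia3, at 3060.1 and 3150.4 TPM, after quantile normalization. P4hb was at 1602 and 1565 TPM, below both controls, with an adjusted p of 0.592.

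The Xbp1-deficient libraries were also set against the Bhlha15 CreER/CreER libraries, a comparison that shares its libraries with those above. In Xbp1-deficient PBs, 31 of the 43 genes were lower and 2 were higher than in Bhlha15 CreER/CreER PBs, against 17.8% and 9.34% of the genes tested, at a median log2 fold change of -1.35 for the 43 genes and 0.013 for all genes. Of the 31, 20 were lower by more than 3-fold, against 1.66% lower and 0.239% higher of the genes tested. Fkbp11, at 438 and 461 TPM in Bhlha15 CreER/CreER PBs, had a log2 fold change of -5.48 ± 0.13 (adjusted p = 1.21e-07), Erp44, at 636 and 704 TPM, of -3.81 and Dnajb9, at 353 and 318 TPM, of -3.75. Hspa13, at 286 and 277 TPM, Dnajc3, at 462 and 480.3 TPM, and Dnajb11, at 1016 and 1057 TPM, differed by -3.43, -3.34 and -3.17, and Hyou1 by -3.40. Mzb1 differed by -2.35 (SE 0.19). The 2 higher genes were Txndc12, at 143 and 136 TPM in Bhlha15 CreER/CreER PBs (0.24, adjusted p = 0.0338), and Ero1l, at 154 and 136 TPM (0.49, adjusted p = 0.0152). Both of these calls were lost without Xbp1-deficient PB replicate 1, and 1 of them with whichever of the other 3 libraries was left out. Hspa5, Tmx1, at 168 and 182 TPM, and Txndc16, at 126 and 111 TPM, were closest to no difference, with -0.00, -0.05 and -0.06, and Hspa5 and Tmx1 were called higher on TPM as deposited, with 0.25 and 0.20.

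**Figure D3:**
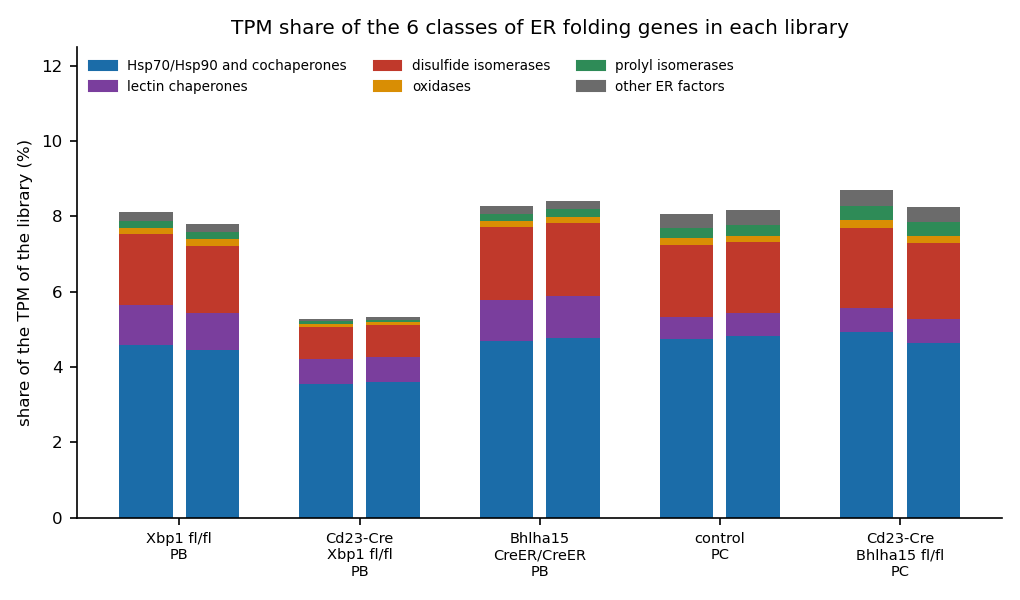
Summed TPM of the 6 classes of ER folding genes as a percent of all TPM of a library, stacked in 1 bar for each of the 10 libraries, with the groups on the horizontal axis. The bars of the Cd23-Cre Xbp1 fl/fl PBs are the lowest, and the 43 genes together took 5.28% and 5.32% there against 7.80% to 8.42% in the other PBs.

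Mist1 binding at these genes was examined in the peaks of LPS-stimulated PBs, on the mm9 build. The 2 deposited lists, 1 for each experiment, held 29413 and 30247 peaks, which shared 23806 regions. They hold fewer peaks than the study describes, and what separates the sets was not examined. Of the 43 genes, 36 (83.7%) had a shared region within 1 kb of a transcription start site, against 7191 of 11360 genes expressed and annotated (63.3%). These sets were not matched for expression level or number of start sites. With a shared length of at least 50%, the shares were 72.1% and 58.6%. The region at Hspa5 covered chr2:34626643-34629753, that at Hsp90b1 chr10:86166968-86170769 and that at P4hb chr11:120432330-120436148, each over the annotated start of the gene. At Fkbp11 the region was narrower, with 843 bp at chr15:98558095-98558937. The genes without a region were Dnajb9, Pdia5, Tmx2, Prdx4, Qsox1, Fkbp7 and Fkbp14. A region was thus found for 12 of 13 genes of the Hsp70 and Hsp90 class, both lectin chaperones, 14 of 16 isomerases, 2 of 4 oxidases, 3 of 5 prolyl isomerases and all 3 other factors. The E-box CAGCTG was in the promoter windows of 5 of the 36 genes (13.9%), namely Calr, Pdia3, Pdia5, Fkbp2 and Fkbp14, and in 17.8% of those of genes tested in PBs.

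In PCs, a part of these genes differed between Mist1-deficient and control PCs, by modest amounts. Compared with control PCs, 11 of the 43 genes (25.6%) were higher, 3 (6.98%) were lower and 29 were not called in Mist1-deficient PCs. Of the 12028 genes tested, 13.3% were higher and 16.2% were lower. None of the 43 reached 3-fold, as did 0.125% (higher) and 0.723% (lower) of the genes tested. The median log2 fold change was 0.14 for the 43 genes and 0.014 for all genes. Qsox1 was at 29.5 and 28.5 TPM in control PCs and 51.7 and 49.9 TPM in the mutant, a log2 fold change of 0.83 ± 0.071 (adjusted p = 0.00195). Fkbp11 was at 787 and 1014 TPM and 1590.0 and 1537 TPM, a log2 fold change of 0.83 ± 0.11 (adjusted p = 0.00480). Tmx4, a membrane-bound isomerase, was at 6.70 and 8.24 TPM and 12.4 and 13.2 TPM, a log2 fold change of 0.79 ± 0.12 (adjusted p = 0.00792). Both mutant libraries were above both controls for each of the 3 genes. Erp29 rose from 859.9 and 849.5 TPM to 1259 and 1156 TPM (0.52), Creld1 from 27.3 and 31.1 TPM to 40.4 and 38.6 TPM (0.45) and Fkbp14 from 5.12 and 4.91 TPM to 7.03 and 7.60 TPM (0.55). The other 5 higher genes were Tmx2 (0.39), Sil1 (0.35), Txndc11 (0.33), Prdx4 (0.33) and Dnajb11 (0.24).

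The lower genes were an isomerase, an oxidase and Cnpy2. P4hb was at 1918 and 1656 TPM in control PCs and 1236 and 1220.5 TPM in the mutant, a log2 fold change of -0.52 ± 0.10 (adjusted p = 0.0159). Cnpy2 was at 674 and 629 TPM and 480.2 and 491 TPM, a log2 fold change of -0.41 ± 0.072 (adjusted p = 0.0122). Ero1lb was at 278 and 254 TPM and 207 and 195 TPM, a log2 fold change of -0.38 ± 0.080 (adjusted p = 0.0189). All 3 had a Mist1 region at the start site, as had 7 of the 11 higher genes and 26 of the 29 that were not called. Pdia6, Ppib and Txndc16 differed the least, with 2328 and 2267 TPM and 2337 and 2234 TPM for Pdia6, 897 and 891 TPM and 888 and 861 TPM for Ppib and 50.7 and 55.1 TPM and 49.0 and 53.2 TPM for Txndc16. Hspa5 was at 8269.7 and 8087 TPM and 7334 and 7129 TPM, below both controls but not called (-0.16, adjusted p = 0.262). Hsp90b1 (18809 and 19423 TPM against 20216 and 18717 TPM) and Mzb1 (13036 and 13432 TPM against 14245 and 13372 TPM) overlapped between the groups, and Calr was at 5417 and 5609 TPM and 5902 and 5676 TPM (0.09).

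**Figure D4:**
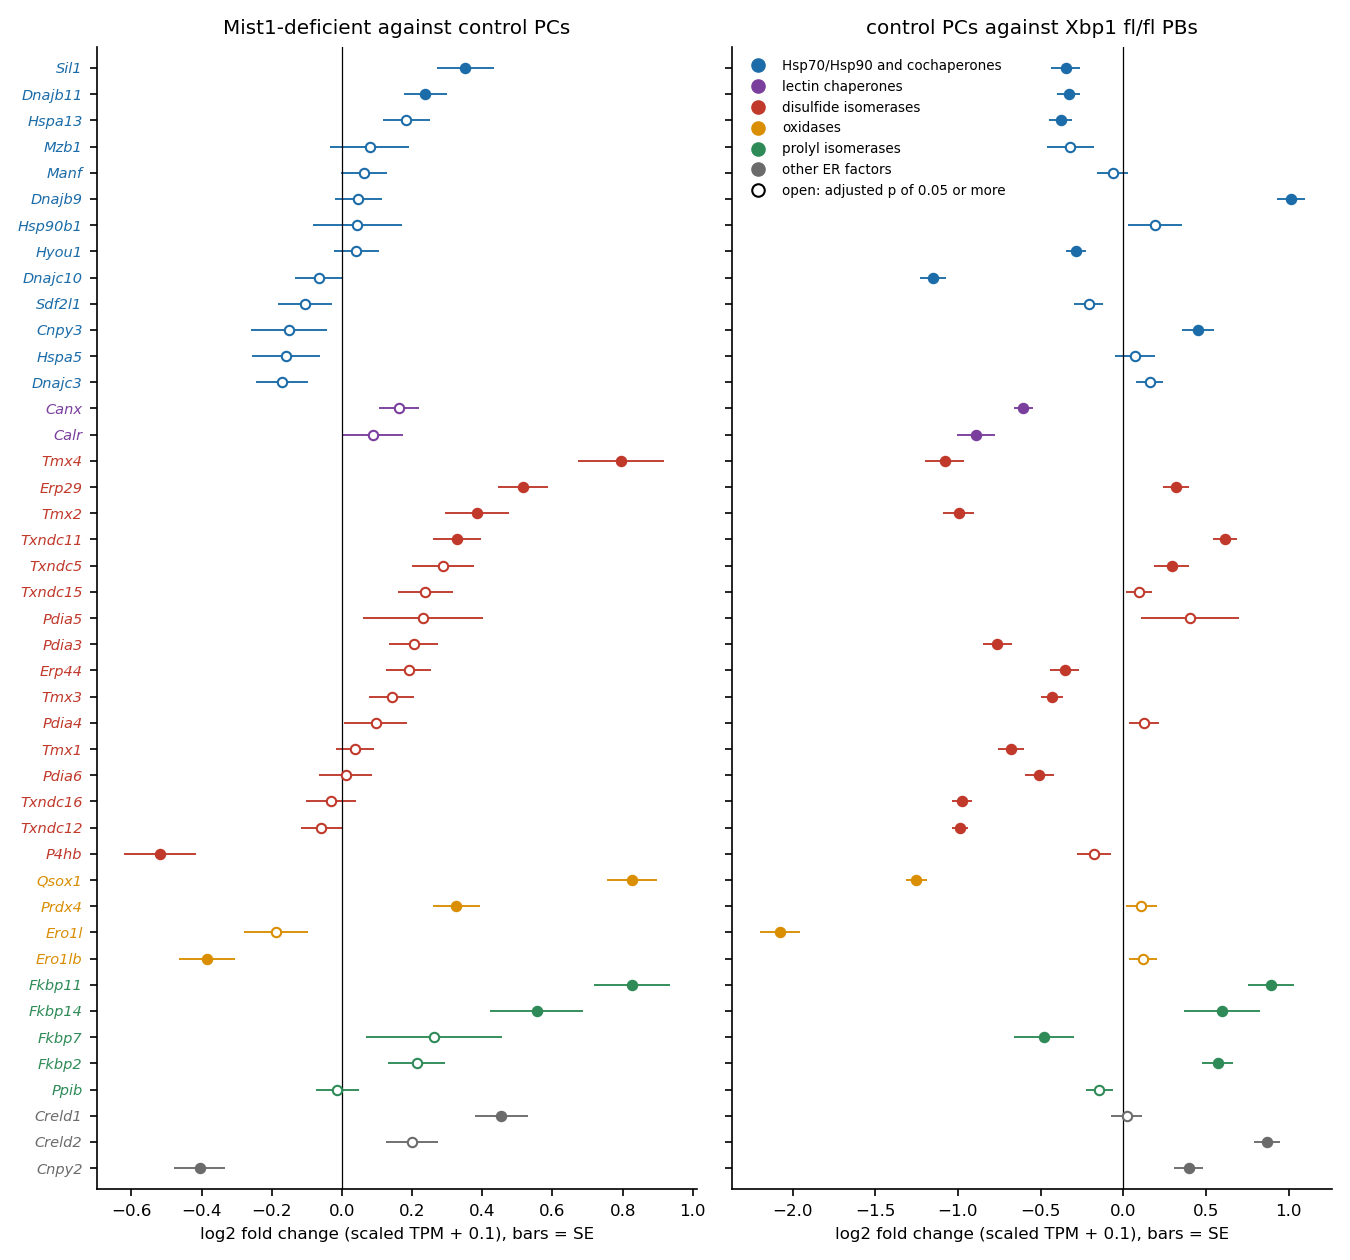
Log2 fold changes of the 43 genes by class, as limma estimates with standard errors from 2 libraries in each group, for Cd23-Cre Bhlha15 fl/fl against control PCs (left) and control PCs against Xbp1 fl/fl PBs (right), with filled points for genes that were called. On the left, Qsox1, Fkbp11 and Tmx4 lie farthest to the right and P4hb, Cnpy2 and Ero1lb farthest to the left. On the right, Ero1l lies at -2.08 and Dnajb9 at 1.01.

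Most of these calls, but not those of Qsox1 and Fkbp11, depended on single libraries. So did the number of calls over all genes tested, which was smaller without either mutant library. The median log2 fold change of the ER folding genes was 0.11 to 0.17 whichever library was left out. Over the same fits, the log2 fold change was 0.77 to 0.88 for Qsox1, 0.67 to 0.98 for Fkbp11, 0.68 to 0.91 for Tmx4 and 0.46 to 0.58 for Erp29. It was -0.66 to -0.38 for P4hb, -0.49 to -0.32 for Cnpy2 and -0.48 to -0.29 for Ero1lb. These genes thus kept their direction, although P4hb, Cnpy2 and Ero1lb lost their call without either mutant library. T cell markers summed to 69.9 and 70.7 TPM in the control PCs and 77.7 and 100.4 TPM in the mutant PCs with 1 of 6 called higher, macrophage markers to 194 and 191 TPM and 173 and 139.9 TPM with none of 6 called, plasma cell markers to 84301 and 77938 TPM and 82605 and 85246 TPM with 3 of 7 called higher and 1 lower, and neutrophil markers to 988 and 461 TPM against 845 and 560 TPM; their part in these values was not tested.

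The calls without Xbp1 in PBs and without Mist1 in PCs come from different libraries. Of the 31 genes lower without Xbp1, 3 (9.68%) were lower, 8 (25.8%) were higher and 20 were not called without Mist1. The 3 were Cnpy2, Ero1lb and P4hb, which are 100% of the genes lower in the PCs and lost that call without either mutant PC library, and the 8 were Creld1, Dnajb11, Erp29, Fkbp11, Prdx4, Qsox1, Sil1 and Txndc11, which are 72.7% of the genes higher in the PCs. Apart from the 100%, which rests on 3 genes, these shares are near those of all 43 genes. Of the 43, 72.1% were lower without Xbp1, and 6.98% were lower and 25.6% higher without Mist1. Fkbp11 and Qsox1, which are among the 8, had log2 fold changes of -5.43 and -1.57 in PBs without Xbp1. Both were 1.77-fold higher in PCs without Mist1.

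Whether the effect of Mist1 differed between PCs and PBs was tested as a difference of the 2 contrasts. It differed for 2 of the 43 genes, 1 in each direction, against 4.17% lower and 1.94% higher of the 13230 genes tested, and 8 (18.6%) had an unadjusted p under 0.05, as had 22.0% of all genes tested. Qsox1, at 61.6 and 66.5 TPM in control PBs and 65.9 and 63.6 TPM in Bhlha15 CreER/CreER PBs, had a difference of 0.78 ± 0.088 (adjusted p = 0.00516), which passed whichever library was left out (adjusted p up to 0.0285). Txndc16 had a difference of -0.36 ± 0.084 (adjusted p = 0.0418), which did not pass whichever library was left out (adjusted p up to 0.157). For Fkbp11 the difference was 0.78 ± 0.20 (adjusted p = 0.0508). Pdia3, at 1747 and 1776 TPM in control PCs and 2070.0 and 1941 TPM in the mutant, Pdia4, at 4575 and 4569 TPM and 5043 and 4616 TPM, and Hyou1, at 1062 and 1045 TPM and 1069.8 and 1071 TPM, had the smallest differences, between 0.02 and -0.01. The mutant alleles differ between the cell types and the control PBs were Xbp1 fl/fl, so that allele and cell type cannot be told apart.

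The 43 genes took similar shares of the TPM, which leave out immunoglobulin transcripts, in control PCs and control PBs. They took 8.08% and 8.17% of all TPM in the PCs. Single genes differed between the groups, as did most of all genes tested. In control PCs, 19 genes were lower and 10 were higher than in control PBs, against 38.4% lower and 37.6% higher of the 13230 genes tested, at a median log2 fold change of -0.18 for the 43 genes and 0.0064 for all genes. By more than 3-fold, 1 gene (Ero1l) was lower and 0 were higher, against 6.19% and 7.77% of the genes tested. Of the oxidases, Ero1l was at 44.4 and 40.2 TPM in PCs against 158 and 172 TPM in PBs, a log2 fold change of -2.08 ± 0.12 (adjusted p = 5.58e-07), whereas Ero1lb was not called (0.12, adjusted p = 0.234). The ratio of Ero1lb to Ero1l TPM was 6.27 and 6.33 in the PCs. Qsox1 was also lower, with a log2 fold change of -1.25 ± 0.063 (adjusted p = 2.28e-07). Both lectin chaperones were lower, Calr by a log2 fold change of -0.89 and Canx by -0.60, with Calr at 5417 and 5609 TPM and Canx at 517 and 528 TPM in the PCs.

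The 4 Tmx isomerases, which are bound to the membrane, were lower in PCs. Tmx4 had a log2 fold change of -1.08 ± 0.12 (adjusted p = 3.20e-05), Tmx1, at 110.1 and 112 TPM, of -0.68 and Tmx3, at 44.3 and 48.5 TPM, of -0.43. Tmx2 was at 12.0 and 13.6 TPM in PCs against 25.3 and 22.3 TPM in PBs (adjusted p = 9.32e-06). Txndc12, at 67.1 and 69.3 TPM, and Txndc16 were lower with log2 fold changes of -0.99 and -0.98, and Pdia3 and Pdia6 with -0.76 and -0.51. In contrast, Txndc11, at 893 and 862 TPM, was higher by 0.62, Erp29 by 0.32 and Txndc5, at 5799 and 6012 TPM, by 0.29. The call of Txndc5 was lost whichever library was left out (adjusted p up to 0.174). Among the BiP cochaperones, Dnajc10 was at 113 and 106 TPM in PCs and lower with -1.15 (SE 0.079), while Dnajb9 was at 673 and 663 TPM and higher by 1.01 (SE 0.085). Hspa13, Sil1, Dnajb11, Erp44 and Hyou1 were lower, with log2 fold changes between -0.38 and -0.29. After quantile normalization, the calls of Pdia6, Sil1 and Hyou1 were lost, and Pdia6 changed direction.

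Of the prolyl isomerases, Fkbp11 was higher in PCs, by 0.89 on the log2 scale (adjusted p = 2.93e-04), as were Fkbp2, at 1049 and 961 TPM (0.57), and Fkbp14 (0.60), whereas Fkbp7, at 6.81 and 10.5 TPM, was lower (-0.48). The call of Fkbp14 was lost whichever library was left out and after quantile normalization, and that of Fkbp7 on TPM as deposited and without either control PB library or control PC replicate 1. Creld2 was at 3158 and 3291 TPM in PCs against 1669 and 1596 TPM in PBs, a log2 fold change of 0.87 ± 0.079 (adjusted p = 9.10e-06), and Cnpy2 and Cnpy3 were higher by 0.40 and 0.45, with Cnpy3 at 38.4 and 33.8 TPM. Creld1, Manf and Hspa5 differed the least, with log2 fold changes of 0.02, -0.06 and 0.07 and with Manf at 1748 and 1812 TPM. The split of calls depended on the scaling, with 19 lower and 17 higher on TPM as deposited (33.8% and 42.0% of all genes) and 16 lower and 16 higher after quantile normalization (39.1% and 36.9% of all genes), where the median of the 43 genes was 0.041. Fibroblast markers were lower in PCs in 6 of 6 tested, and neutrophil, T cell and macrophage markers were higher in 8 of 8, 6 of 6 and 6 of 6; their part was not tested, and differences of origin, stage and experiment between the PBs and PCs cannot be told apart.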

How the data were processed

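The deposited TPM values were calculated by the authors, who trimmed reads with cutadapt, used STAR 2.4.2 for alignment to mm9 and featureCounts 1.5 for counts, corrected these for gene length and set the sum of each library to 1000000, leaving out antigen receptor genes. Mist1 peaks were called by the authors with Bowtie 1.0.0 and MACS (SAMtools 1.9, Picard 2.18.27), and the deposited peak lists give positions, with a score of 0 for each peak. Names and versions are those of the submitters' processing notes and the study's methods.

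The 43 genes and the other lists were chosen with earlier results of these data known. A suffix on gene names was removed, which 4 of the 43 carried (Pdia4, Pdia6, Txndc11, Ppib). Its meaning was not examined. Values were scaled by the median of ratios and fitted on log2(TPM + 0.1) with limma 3.58.1 in R 4.3.3 (lmFit, eBayes with trend) for genes reaching 1 TPM in 2 or more libraries, in models of the 6 PB, the 4 PC or all 10 libraries. All 43 passed this filter. A fold change on this scale understates the change of low genes. Models were tested on simulated data with changes of 1 or 2 on the log2 scale in genes above 5 TPM. At a change of 1, 80 of 100 genes were recovered in PBs and 79 of 100 in PCs. In these simulations, 6 and 10 unchanged genes were called, respectively. Smaller changes, like all those called among the 43 genes without Mist1 in PCs, were not simulated. With 2 libraries against 2, an exact permutation test cannot go below p = 0.333, so that p-values rest on the spread shared across genes.

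Genes were named by rule. Each of the 43 was named. In each comparison, the 8 largest called changes and those called in the opposite direction were given in each library. So were the 3 smallest changes and the 3 most abundant genes. Members outside this rule in a comparison, among them Hspa5 and Canx without Xbp1, were added after their values were seen. The fits were repeated on TPM as deposited, after quantile normalization, with pseudocounts of 0.01 and 1, without a filter or at 5 TPM, without the trend, on the libraries compared alone and without each library. Peaks were joined with bedtools 2.31.1 when they shared at least 1 bp and assigned to start sites of the mm9 annotation (GENCODE M1). Protein sequences were not analysed here, and the level of the B cell markers is not reported here. Python 3.11.15, pandas 2.3.3, numpy 2.4.6 and matplotlib 3.10.9 were used.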

Additional observations from a re-analysis of the deposited data

Results flagged for a closer look

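For 2 of the 43 genes, the log2 fold change without Mist1 in PCs differed from that in Bhlha15 CreER/CreER PBs by a test of the difference itself, 1 in each direction, against 4.17% lower and 1.94% higher of all genes tested. The difference (PCs minus PBs) was 0.78 for Qsox1, which was higher in both mutant PC libraries (51.7 and 49.9 TPM) than in both controls (29.5 and 28.5 TPM) and overlapped between the PB groups. It was -0.36 for Txndc16, which was at 126 and 111 TPM in Bhlha15 CreER/CreER PBs against 96.5 and 95.9 TPM in the controls and overlapped between the PC groups. The call of Txndc16 was lost whichever library was left out, on TPM as deposited, after quantile normalization, without the trend and without a filter.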

How the results depend on the processing

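On TPM as deposited, 8 of the 43 genes were higher without Xbp1 in PBs (median -1.12), against 28.2% of all genes tested. In Bhlha15 CreER/CreER PBs, 1 was higher, against 0.099%. In Xbp1-deficient against Bhlha15 CreER/CreER PBs, 6 were higher (median -1.10), against 32.8%. For the difference of the Mist1 effect, 0 were lower and 2 higher, against 4.44% and 1.96%. In control PCs against PBs, 17 were higher (median -0.064), against 42.0%. After quantile normalization, 8 were higher without Xbp1 (median -1.21), against 20.7% of all genes tested. In Bhlha15 CreER/CreER PBs, 2 were higher (median 0.062), against 0.099%. Against Bhlha15 CreER/CreER PBs, 4 were higher in Xbp1-deficient PBs (median -1.31), against 19.2%. For the difference of the Mist1 effect, 4 were higher, against 4.00%. In control PCs, 16 were higher, against 36.9%, and their median turned from -0.18 to 0.041. The median without Mist1 in PCs was 0.052. All genes called without Xbp1 were divided into 2186 lower and 1250 higher in the fit reported, 1357 and 3423 on TPM as deposited, and 1965 and 2511 after quantile normalization. Hspa5 (0.25 on TPM as deposited, 0.87 after quantile normalization) and Tmx1 (0.20 on TPM as deposited) turned to higher against Bhlha15 CreER/CreER PBs, as did Manf in control PCs (0.23 after quantile normalization). With at least 5 TPM, the medians were -1.41 for Xbp1 loss and -1.41 against Bhlha15 CreER/CreER PBs, as fewer genes were tested. For the difference of the Mist1 effect, 2 were then higher, as with a pseudocount of 1, against 2.75% and 2.16% of all genes tested. Without a filter, 0 were lower for this difference, against 1.97% of all genes tested. Without the trend, 1 was higher without Xbp1 and 0 against Bhlha15 CreER/CreER PBs, against 7.33% and 6.77% of all genes tested. Without Mist1 in PCs, 0 were then lower and 7 higher, against 11.6% and 7.02%. For the difference, 0 were lower, against 1.72%. With the compared libraries alone, 1 was higher against Bhlha15 CreER/CreER PBs, against 7.24% of all genes tested. The cause of these shifts was not tested.

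When a library was left out, 1 to 2 were higher without Xbp1 (median -1.38 to -1.29), 0 to 1 against Bhlha15 CreER/CreER PBs (median -1.47 to -1.25), 0 to 6 were lower and 3 to 16 higher without Mist1 in PCs, and 0 were lower and 1 to 3 higher for the difference. The median was 0.051 to 0.20 in Bhlha15 CreER/CreER PBs and -0.21 to -0.11 in control PCs. A lone library was then assumed to vary like the other groups. The share of genes with a Mist1 region stayed on the same side under the alternatives run. Of 794 values of single genes under alternatives, 733 kept their call. Among these, genes called in neither fit could change direction. No paired analysis was possible because the labels give no replicate numbers shared by the groups.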
